A study of Homo sapiens with 7 samples.

Results

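Chromosomes 16, 17 and 22 carried 18856 of the 135471 chromatin loops in 7 HiChIP lists of the cell line HEC-1-B, which comes from a human uterine adenocarcinoma. Loops were included by position alone: every loop of any list whose first anchor lies on chr16, chr17 or chr22, with no measured value used. The chromosomes themselves were chosen with earlier results of these data known. The 3 chromosomes are known as gene-rich. Gene density was not measured here, so that description was not checked. Positions are those of the deposited lists, counted from 1, with hg19 named as the genome build in the submitters' processing notes.

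HiChIP ligates DNA ends that are near each other in fixed nuclei, pulls down the ligated DNA through a chosen chromatin protein and reads the sequence on either side of the junction. CTCF is a zinc-finger protein that binds DNA and halts the cohesin complex, of which RAD21 is a subunit, as that complex extrudes a chromatin loop, so CTCF sites often mark loop ends. ZNF143 is a zinc-finger transcription factor known for binding close to promoters. Loop anchors with many partners are called hubs below.

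Each group held 1 library. Unmodified (wild-type) HEC-1-B cells were measured with antibodies against ZNF143, CTCF and RAD21, and cells in which ZNF143 was deleted were measured with the CTCF and RAD21 antibodies. CTCF-AID cells, whose CTCF is fused to an auxin-inducible degron, so that adding the auxin IAA causes its degradation, were measured with the ZNF143 antibody at 0 h and after 24 h of auxin. The labels' protocol gives 500 µM IAA and cells that express TiR1, and it does not say whether the deleted or the CTCF-AID line came from a single clone. No ZNF143 list from deleted cells and no CTCF list from auxin-treated cells was analysed here, so removal of either protein was not checked.

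A loop is a pair of anchors with a whole-number count of at least 2, and the total count of a list, 33458 to 143119, is a sum over its loops and not the depth of its library. With 1 library per group there was no replicate check and no p-value. The 95% intervals cover counting error only, and loops with a common anchor are not independent of each other. The lists of ZNF143-deleted cells came with 7 columns and the wild-type CTCF and RAD21 lists with 8, so list layout and deletion cannot be told apart. The wild-type ZNF143 list also had 7 columns and both CTCF-AID lists had 8. On these chromosomes 88.4% and 87.4% of counts were even numbers in the 0 h and 24 h CTCF-AID lists, against 66.6% to 72.8% in the other 5, so the scale of the CTCF-AID counts may differ. The loop caller and its filters are not given in the sources used here, so why an unlisted pair was left out is unknown, and it is not shown to be absent from the cells. Loops on chromosome 19, the densest chromosome in the 3 wild-type lists, weigh on the average of the other 20 chromosomes, so several values are also given without it. Values of the other chromosomes include it unless stated.

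Loop density depended on both the antibody and the chromosome. The 3 chromosomes made up 7.35% of the length spanned by loops (222.54 of 3028.8 Mb, each chromosome measured to its last anchor). They held 2005 of 11981 wild-type ZNF143 loops (16.7%), 2351 of 19312 CTCF loops (12.2%) and 1821 of 16788 RAD21 loops (10.8%). ZNF143 loops numbered 9.01 per Mb, against 3.55 per Mb on the other chromosomes, a ratio of 2.53 (95% interval 2.41 to 2.66). CTCF loops numbered 10.6 per Mb against 6.04, a ratio of 1.75 (1.67 to 1.83), and RAD21 loops 8.18 per Mb against 5.33, a ratio of 1.53 (1.46 to 1.61). The excess was thus greater for ZNF143 loops than for CTCF or RAD21 loops, with intervals that do not overlap. Without chromosome 19 among the others the ratios were 3.52 (3.35 to 3.70) for ZNF143, 1.83 for CTCF and 1.59 for RAD21.

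Chromosome 17 carried most of the excess. Its density was 13.4 ZNF143, 15.8 CTCF and 12.8 RAD21 loops per Mb, second of 23 chromosomes in each wild-type list. Against the other chromosomes these densities were 3.78 (3.55 to 4.03), 2.61 (2.47 to 2.77) and 2.41 (2.26 to 2.56) times as high, or 5.26, 2.74 and 2.49 without chromosome 19. Chromosome 16 stood apart for ZNF143 loops, with a ratio of 2.24 (2.07 to 2.41), but came to 1.32 (1.22 to 1.42) for CTCF and 1.05 (0.957 to 1.15) for RAD21. Without chromosome 19 these were 3.11, 1.38 and 1.09. Chromosome 22 had the lowest ratios of the 3: 1.08 (0.931 to 1.24) for ZNF143, 1.14 (1.02 to 1.26) for CTCF and 1.01 (0.891 to 1.14) for RAD21. Without chromosome 19 its ratios were 1.50, 1.19 and 1.04, so for ZNF143 its place near the average rested on chromosome 19. The length of chromosome 22 includes a stretch with no anchor before position 17397408. Over only those 5 Mb windows that hold a loop in any list, its ratio was 1.46 (1.26 to 1.68) for ZNF143, 1.54 (1.38 to 1.71) for CTCF and 1.37 (1.21 to 1.54) for RAD21, so its place also depended on how length was counted.

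Chromosome 17 had the highest density of the 3 in all 7 lists, also over windows with loops, and in the list of 0 h CTCF-AID cells it reached 39.9 loops per Mb. In ZNF143-deleted cells chromosome 17 was the densest of all 23 chromosomes, with 15.3 CTCF and 9.40 RAD21 loops per Mb, and chromosome 19 came second with 14.8 and 9.17.

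**Figure D1:**
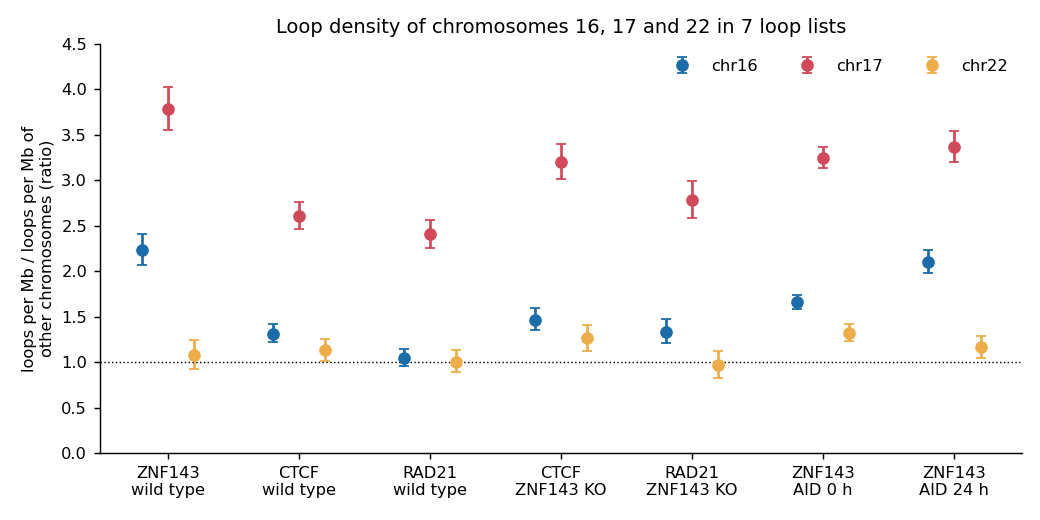
Loops per Mb on chromosomes 16, 17 and 22 divided by loops per Mb on the other 20 chromosomes (vertical axis, ratio) in the 7 lists (horizontal axis); points are ratios, bars are 95% counting intervals and the dotted line marks equal density. Chromosome 17 lies between 2.41 and 3.78 in every list, while chromosome 22 stays between 0.968 and 1.33 with chromosome 19 among the others.

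Loops were gathered in few parts of each chromosome. The 3 chromosomes were divided into 47 windows of 5 Mb, of which 41 held a loop in at least 1 list. The 6 windows without loops lay at 35 to 45 Mb and 60 to 65 Mb of chromosome 16 and in the first 15 Mb of chromosome 22. Among wild-type ZNF143 loops, 27.2% fell in the 3 fullest windows: 198 at 0 to 5 Mb of chromosome 16, 174 at 30 to 35 Mb of chromosome 16 and 173 at 35 to 40 Mb of chromosome 17. The fullest window for CTCF was 45 to 50 Mb of chromosome 17, with 253 loops (50.6 per Mb), and it was the fullest for RAD21 too, with 178 loops. The window at 35 to 40 Mb of chromosome 17 followed in both lists, with 159 CTCF and 148 RAD21 loops. Of the 59 densest windows of the genome in each list, 13 were on these chromosomes, which held 40 of the 583 windows ranked (those over 1 Mb long with a loop in any list), for ZNF143, 10 for CTCF and 11 for RAD21, and chromosome 17 held 9, 6 and 7 of them.

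The balance of antibodies differed between windows of chromosome 16. At 0 to 5 Mb there were 198 ZNF143 loops against 91 CTCF and 69 RAD21 loops. At 30 to 35 Mb there were 174 against 41 and 18. At 65 to 70 Mb the numbers were closer, 138 against 155 and 94. In most of the remaining windows of that chromosome CTCF loops outnumbered ZNF143 loops, as at 55 to 60 Mb, with 28 ZNF143, 72 CTCF and 47 RAD21 loops. On chromosome 17, 2 windows had no wild-type ZNF143 loop at all: 10 to 15 Mb held 11 CTCF and 15 RAD21 loops, and 50 to 55 Mb held 22 and 29. The CTCF-AID list at 0 h, which has more loops, listed 8 and 16 ZNF143 loops there. Across the 41 windows with loops, CTCF and RAD21 numbers followed each other with Pearson's r of 0.97 (Spearman's rho 0.93), and ZNF143 numbers followed CTCF numbers with r of 0.75 (rho 0.83). These correlations are across windows that share libraries and are given as a description only.

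**Figure D2:**
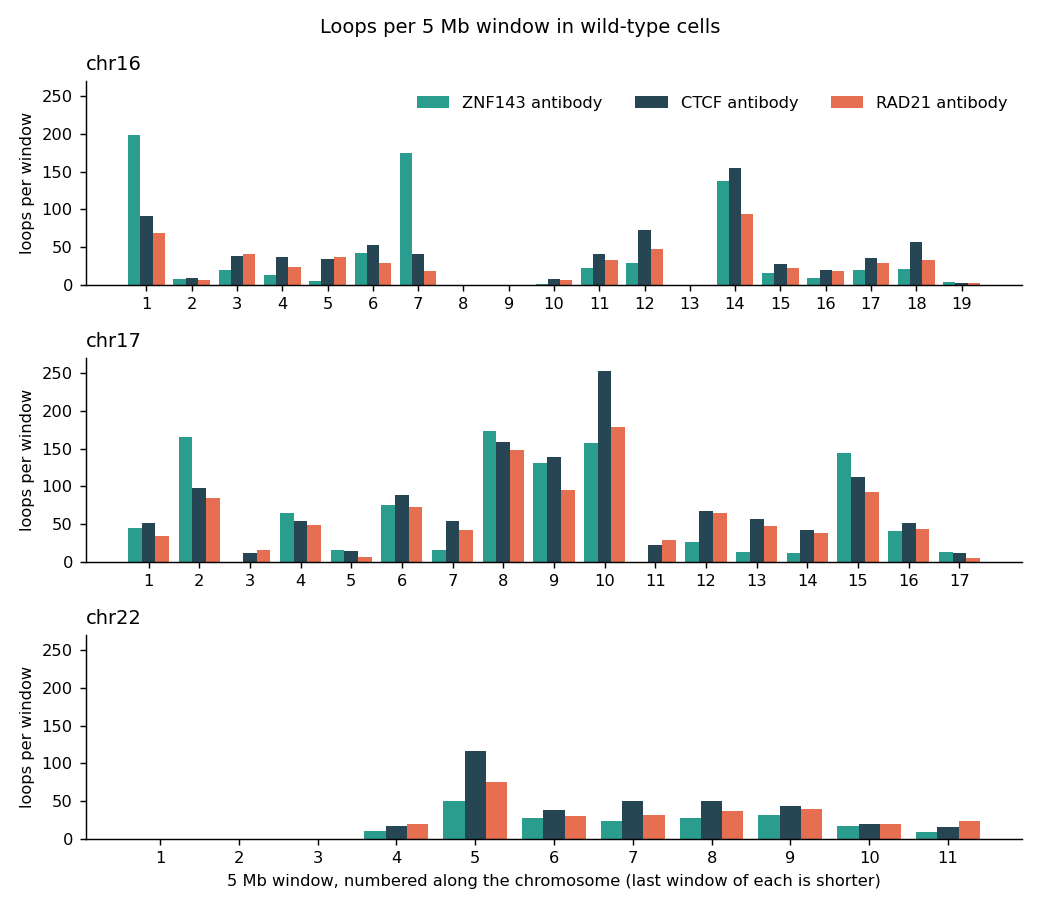
Wild-type loops per 5 Mb window (vertical axis, number of loops) against window number along chromosomes 16, 17 and 22 (horizontal axis), with 1 bar per antibody. Windows 1 and 7 of chromosome 16 hold 198 and 174 ZNF143 loops, above their CTCF and RAD21 numbers, whereas window 10 of chromosome 17 holds 253 CTCF loops.

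The best supported ZNF143 loop of each chromosome had no wild-type CTCF or RAD21 counterpart. On chromosome 17 the loop with the highest ZNF143 count joined chr17:73779486-73781987 to chr17:73850841-73852478, 70.9 kb apart. Its count was 127 in wild-type cells and 111 and 150 in CTCF-AID cells at 0 h and 24 h. No loop was listed there with the CTCF antibody in either genotype or with RAD21 in wild-type cells, while RAD21 in deleted cells had a count of 2. The corresponding loop of chromosome 16, between chr16:67839297-67841770 and chr16:67875049-67876968, had ZNF143 counts of 89, 94 and 180. It was in none of the 4 CTCF and RAD21 lists. That of chromosome 22, between chr22:29137089-29138770 and chr22:29167918-29170276, had ZNF143 counts of 23, 44 and 69 and was likewise in none of those 4 lists. In the CTCF-AID lists the highest count on chromosome 16 belonged to a loop between chr16:30907279-30909403 and chr16:30932842-30936136, with 56 in wild-type cells, 145 at 0 h and 276 at 24 h of auxin, and a count of 2 with CTCF. All of these counts were higher after auxin than at 0 h, although the total count of the 24 h list was lower (102960 against 143119).

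CTCF and RAD21 shared their best supported loops. On chromosome 16 the same loop led both wild-type lists: chr16:55498344-55499850 to chr16:55735210-55738250, a span of 238 kb, with a count of 401 for CTCF, 432 for RAD21 and 4 for ZNF143. Its ZNF143 count in CTCF-AID cells was 8 at 0 h and 0 at 24 h. In ZNF143-deleted cells it still led both lists, with 70 for CTCF and 78 for RAD21. On chromosome 17, chr17:43212095-43213674 to chr17:43274551-43276348 (62.6 kb) had 212 for CTCF and 130 for RAD21 in wild-type cells, and 99 and 36 in deleted cells. On chromosome 22, chr22:41799347-41800595 to chr22:41911827-41914900 had 36 and 31 in wild-type cells and 11 and 3 in deleted cells. The lower counts on these 3 loops went with a lower total in the deleted cells, 46216 against 80724 for CTCF and 33458 against 74410 for RAD21.

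Of all 2005 wild-type ZNF143 loops on the 3 chromosomes, 364 (18.2%, interval 16.5 to 19.9) had a CTCF counterpart and 307 (15.3%, 13.8 to 16.95) a RAD21 counterpart. A loop counts as found in another list, or found again, when both anchors, extended by 5 kb, overlap those of a loop in the other list by at least 1 bp. Wherever a loop's count in another list is given, above or below, it is the highest count among the loops that fit. This can raise counts and count ratios where several fit. On the other chromosomes the shares were 19.1% and 16.5%, and the interval of the difference included 0 (-2.79 to 0.924 points for CTCF). Without chromosome 19 they were 22.7% and 20.1%, and the difference was -4.59 points (-6.50 to -2.60) for CTCF and -4.76 (-6.54 to -2.88) for RAD21, so whether these chromosomes had lower shares depended on chromosome 19. The chromosomes differed among themselves. On chromosome 17, 22.3% (20.0 to 24.9) of ZNF143 loops were found in the CTCF list, against 12.4% (10.2 to 15.0) on chromosome 16 and 15.8% (11.4 to 21.6) on chromosome 22. Loops found in both other lists made up 14.7% of ZNF143 loops on chromosome 17 (12.7 to 16.9), 7.25% on chromosome 16 (5.57 to 9.39) and 9.18% on chromosome 22, against 12.9% on the other chromosomes. The overlap of RAD21 with CTCF was larger: 1019 of 1821 RAD21 loops had a CTCF counterpart (56.0%, 53.7 to 58.2), against 51.7% on the other chromosomes.

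Anchors gave a different picture from loops. Of 1506 merged ZNF143 anchors, 785 (52.1%, 49.6 to 54.6) overlapped a CTCF anchor and 708 (47.0%, 44.5 to 49.5) a RAD21 anchor, against 53.7% and 50.2% on the other chromosomes, or 55.6% and 52.2% without chromosome 19. In the reverse direction, 784 of 1905 CTCF anchors (41.2%, 39.0 to 43.4) overlapped a ZNF143 anchor, against 29.2% (28.5 to 30.0) elsewhere, and 707 of 1611 RAD21 anchors did so (43.9%, 41.5 to 46.3), against 29.1%. ZNF143 anchors were also denser there, with 6.77 per Mb against 2.92.

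Loops on these chromosomes were shorter than elsewhere with every antibody. The median span of wild-type CTCF loops was 118 kb (interval 112 to 124) against 161 kb (158 to 165) on the other chromosomes. For RAD21 it was 120 kb (114 to 126) against 167 kb (163 to 170). For ZNF143 the gap was smaller, 130 kb (121 to 140) against 147 kb (143 to 151), and the other chromosomes came to 140 kb (136 to 145) without chromosome 19, an interval that overlaps. Chromosome 17 had the shortest medians of the 3 in each wild-type list, 121 kb for ZNF143, 112 kb for CTCF and 114 kb for RAD21. The ZNF143 median of chromosome 22, 147 kb, equalled that of the other chromosomes. Within chromosome 16 the window at 0 to 5 Mb had short CTCF and RAD21 loops, with medians of 73.3 and 76.4 kb, while its ZNF143 loops had a median of 135 kb. At 10 to 15 Mb of the same chromosome the CTCF and RAD21 medians were 228 and 245 kb. Wild-type ZNF143 loops absent from the CTCF list were longer than those found in it, with medians of 151 and 82.8 kb (162 and 103 kb elsewhere).

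**Figure D3:**
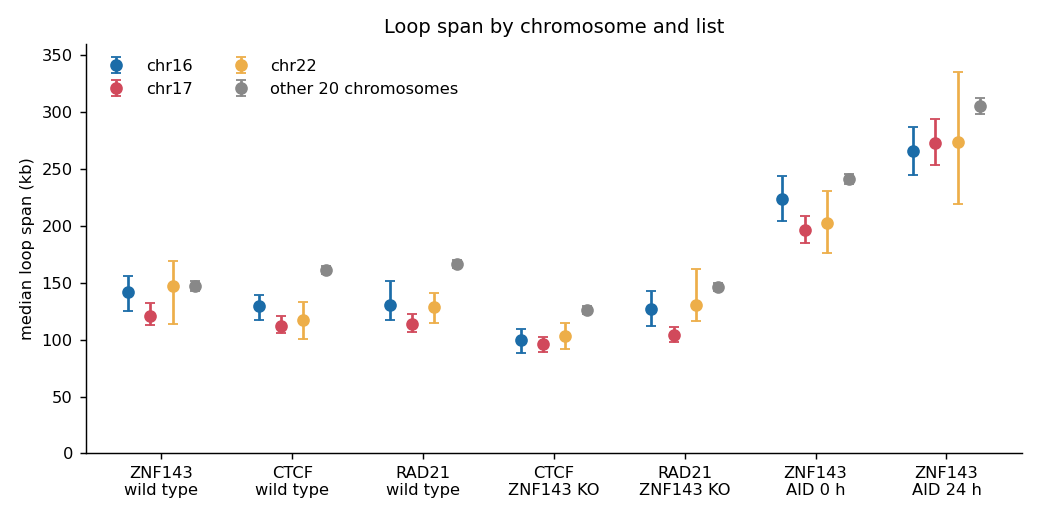
Median loop span (vertical axis, kb) on chromosomes 16, 17 and 22 and on the other 20 chromosomes in each list (horizontal axis); bars are 95% order-statistic intervals. In the CTCF and RAD21 lists all 3 chromosomes have medians below the other chromosomes, with intervals that reach them only for chromosomes 16 and 22 in the RAD21 list of deleted cells, and both CTCF-AID lists have longer loops than the wild-type ZNF143 list.

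A hub was defined as a merged anchor with at least 10 loops. Among wild-type anchors of these chromosomes, 53 of 1506 were ZNF143 hubs (3.52%, interval 2.70 to 4.57), with 3.7% over the whole list. CTCF hubs numbered 49 of 1905 (2.57%, 1.95 to 3.38), with 1.58% over the list, and RAD21 hubs 20 of 1611 (1.24%, 0.805 to 1.91), with 0.966% over the list. Among the wild-type lists the interval of the difference from the other chromosomes left out 0 only for CTCF, 1.12 points (0.462 to 1.95), and 33 of the 49 lay on chromosome 17. Chromosome 19 held 154 of the 306 ZNF143 hubs elsewhere. Without it the share elsewhere was 2.16% (1.85 to 2.53), below the interval of these chromosomes. In the remaining lists hubs made up 33 of 1952 anchors for CTCF in deleted cells (1.69%, list 0.905%), 8 of 1471 for RAD21 in deleted cells (0.544%, list 0.317%), 242 of 2664 for ZNF143 at 0 h (9.08%, list 6.76%) and 155 of 1350 at 24 h (11.5%, list 9.87%). Without chromosome 19 the ZNF143 hub shares elsewhere were 3.99% at 0 h and 5.04% at 24 h. With a minimum count of 3 the hubs numbered 47 at 0 h and 48 at 24 h, so the lower number after auxin depended on loops with a count of 2. In deleted cells they numbered 5 for CTCF and 0 for RAD21. Shares of anchors were not computed at that setting.

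The strongest ZNF143 hubs had few CTCF or RAD21 loops. In what follows, loops at a hub are counted within 5 kb of it in every list. The hub at chr17:73779486-73781987 had 44 ZNF143 loops in wild-type cells and 53 and 38 in CTCF-AID cells at 0 h and 24 h, with 4 CTCF and 0 RAD21 loops in wild-type cells and 1 of each in deleted cells. Its neighbour at chr17:73850841-73852478 had 45, 51 and 45 ZNF143 loops, with 4 CTCF and 4 RAD21 loops in wild-type cells and 5 and 2 in deleted cells. The hub at chr16:67839297-67841770 had 43, 46 and 30 ZNF143 loops and no CTCF or RAD21 loop, apart from 1 RAD21 loop in deleted cells. The leading hub of chromosome 22, chr22:22019524-22020873, had 14, 11 and 12 ZNF143 loops and none in any CTCF or RAD21 list. In 0 h CTCF-AID cells, anchors at chr17:38082606-38085226 and chr16:2204742-2206799 joined the leaders with 51 and 49 loops, 35 and 39 after auxin and 35 and 29 in wild-type cells, and again none in the 4 CTCF and RAD21 lists.

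The CTCF hubs were anchors in the RAD21 list too, though most were not hubs there. The leading hub of both wild-type lists was chr17:46100314-46105226, with 28 CTCF, 23 RAD21 and 18 ZNF143 wild-type loops. It had 21 CTCF and 13 RAD21 loops in deleted cells, and 24 and 15 ZNF143 loops in CTCF-AID cells at 0 h and 24 h. The next CTCF hub, chr17:43212095-43213674, had 24 wild-type CTCF loops and 31 after deletion, with 13 and 15 RAD21 loops. It lies at an end of the best supported CTCF loop of that chromosome. The CTCF hub at chr16:67849766-67851270 went from 18 to 11 CTCF loops and had 4 and 2 RAD21 loops. It lies close to the ZNF143 hub at chr16:67839297-67841770 but had only 3 ZNF143 loops itself in wild-type cells. In CTCF-AID cells it had 10 at 0 h and 5 at 24 h.

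All 49 CTCF hubs overlapped a RAD21 anchor, all 20 RAD21 hubs overlapped a CTCF anchor, and 15 of those 20 overlapped a CTCF hub (61.4% elsewhere). Of the CTCF hubs, 15 of 49 overlapped a RAD21 hub (30.6%, 37.0% elsewhere), and on the other chromosomes 99.1% overlapped a RAD21 anchor. Among the CTCF hubs, 44 of 49 (89.8%) overlapped a ZNF143 anchor, well above the 41.2% of all CTCF anchors there, and 18 of 20 RAD21 hubs did (90.0%). Elsewhere 75.8% of CTCF hubs and 69.7% of RAD21 hubs did. ZNF143 hubs went the other way. Of the 53, 22 (41.5%) overlapped a CTCF anchor and 16 (30.2%) a RAD21 anchor, against 52.1% and 47.0% of all ZNF143 anchors. Elsewhere these shares of ZNF143 hubs were 28.8% and 24.8%, or 30.9% and 28.3% without chromosome 19. Of the 53, 2 (3.77%) were also CTCF hubs and 1 (1.89%) a RAD21 hub, against 1.96% and 0.980% elsewhere. Hubs and other anchors were not matched for width, so these shares are a description and no test. Hubs at a minimum count of 3 numbered 29 for ZNF143, 11 for CTCF and 4 for RAD21 in wild-type cells. Their shares of anchors were not computed, so whether the excess of CTCF hubs held at that setting is not known.

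**Figure D4:**
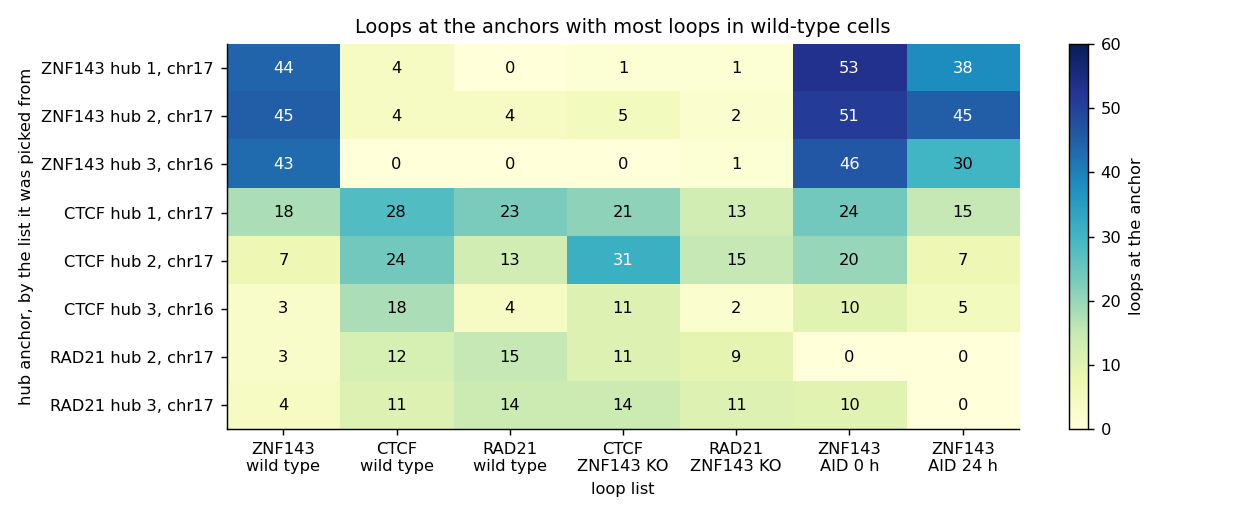
Number of loops (cell value and colour) at the 3 anchors with most loops in each wild-type list (vertical axis, ranked within the list they were picked from) in all 7 lists (horizontal axis), counted within 5 kb; the first RAD21 hub is the first CTCF hub and is drawn once. The ZNF143 hubs have 43 to 45 ZNF143 loops in wild-type cells and at most 4 CTCF or RAD21 loops there, while the CTCF and RAD21 hubs have loops in both of those lists.

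Of the wild-type ZNF143 loops on these chromosomes, 985 of 2005 (49.1%) had a hub at an end, against 579 of 2351 CTCF loops (24.6%) and 230 of 1821 RAD21 loops (12.6%). On the other chromosomes the shares were 47.0%, 15.2% and 10.4%, or 32.2%, 14.5% and 10.2% without chromosome 19. Loops joining a hub to another hub made up 2.94% (2.29 to 3.78) of ZNF143 loops. The share was 6.61% on the other chromosomes and 1.01% (0.802 to 1.27) on them without chromosome 19, so the direction of this difference depended on chromosome 19. When loops that share anchors were chained into networks, the largest wild-type ZNF143 network of the 3 chromosomes lay at chr17:36504639-41393923, with 136 anchors and 241 loops, and the largest of chromosome 16 at chr16:121736-5122932, with 113 anchors and 198 loops. In the 0 h CTCF-AID list their largest network spanned chr17:32746461-49245139 with 424 anchors and 1327 loops. At 24 h their largest, chr17:34841687-49231757, had 219 anchors and 693 loops. In each of these 3 lists chromosome 19 held a larger one, with 1293, 5726 and 4545 loops.

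The comparison of CTCF lists asks how CTCF-bound loops change when ZNF143 is deleted. On these chromosomes there were 2186 CTCF loops in deleted cells and 2351 in wild-type cells, a ratio of 0.930 (0.877 to 0.986), against 0.791 (0.773 to 0.809) on the other chromosomes. Relative to the others the ratio was 1.18 (1.10 to 1.25). By chromosome the numbers went from 718 to 634 on chromosome 16 (0.883), from 1282 to 1243 on chromosome 17 (0.970) and from 351 to 309 on chromosome 22 (0.880). The value of chromosome 17 was the highest of 23 chromosomes. Relative to the others chromosome 22 had 1.11, with an interval (0.954 to 1.30) that included 1. When the wild-type list was thinned to the total count of the deleted cells the ratio became 1.47, so whether loops were fewer depended on the totals. The ratio relative to the other chromosomes was then 1.17. At a minimum count of 10 the ratio was 0.302, and the relative ratio was 1.60 for the 3 chromosomes but turned to 0.839 for chromosome 16.

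More CTCF loops were found again here than elsewhere. Of 2351 wild-type loops, 1072 were found in deleted cells (45.6%, 43.6 to 47.6), with 39.1% over the whole list and 38.2% on the other chromosomes, a difference of 7.43 points (5.29 to 9.57). Chromosome 17 had 49.0% (46.3 to 51.7), chromosome 22 43.9% and chromosome 16 40.4%. The share went up with support: 30.6% of loops with a count of 2 were found again, 88.0% of those with 10 to 19 and all 46 with 20 or more, against 23.3%, 86.9% and 97.9% elsewhere. At a minimum count of 10 the difference from the other chromosomes was 1.37 points. Of the 1279 loops not found, 678 (53.0%, 50.3 to 55.7) had both anchors within 5 kb of an anchor in the list of deleted cells, in loops with other partners, against 41.1% elsewhere. Only 89 had neither anchor there.

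Most well supported CTCF loops had lower counts in deleted cells. For 163 kept loops with a count of at least 10, the median count in deleted cells was 0.40 of the wild-type count (quartiles 0.282 and 0.571), and 9 had a higher count. On the other chromosomes the median was 0.333, and 29 of 1001 had a higher count. These loops were picked for high counts in the wild-type list, a choice that can by itself go with lower counts in a second list. How far it did so here was not tested. Loops of the first list that were not found in the second are called lost, and the reverse gained. The lost loop with the highest count on each chromosome was chr16:46406590-46408416 to chr16:46424606-46437156 (18 in wild-type cells), chr17:56492104-56496006 to chr17:56524264-56525750 (16, and 16 with RAD21, which still had 5 in deleted cells) and chr22:38038669-38041351 to chr22:38092151-38094157 (12, and 12 with RAD21). The last was absent from both lists of deleted cells, although a CTCF loop with a count of 2 was found within a 10 kb extension. Gained loops were weaker. The highest, chr17:10639732-10641466 to chr17:10675232-10676579, had 7 with CTCF in deleted cells and a wild-type RAD21 count of 2, and those of chromosomes 16 and 22 had 5 and were in no other list.

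CTCF loops were shorter in the list of deleted cells. The median span went from 118 to 98.3 kb (ratio 0.836, 0.775 to 0.896), and from 161 to 126 kb on the other chromosomes (0.781, 0.756 to 0.809). Loops of 20 to 50 kb went from 473 to 569, those of 200 to 500 kb from 526 to 405 and those of 500 to 1000 kb from 132 to 71. The class of 1000 to 2000 kb did not follow, with 20 and 24 loops (1.20, 0.635 to 2.29), whereas on the other chromosomes it went from 361 to 181 (0.501, 0.417 to 0.601). The ratio relative to the others was 2.39 (1.29 to 4.45) and rests on few loops.

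Few windows of these chromosomes stood out. Windows with at least 20 loops in the first list of a pair were compared, and a window was called when its ratio, divided by the ratio over the genome, was at least 1.5 or at most 1/1.5. For CTCF, 0 of 33 windows were higher (1.56% of windows over the genome) and 1 was lower (15% over the genome). The lower window was 50 to 55 Mb of chromosome 16, with 41 and 22 loops (0.664), and its interval, 0.396 to 1.12, included 1. The next lowest, not past the limit, was 30 to 35 Mb of chromosome 22, with 50 and 28 loops (0.693). The highest were 5 to 10 Mb of chromosome 17, with 98 and 117 loops (1.48, 1.13 to 1.94), and 35 to 40 Mb, with 159 and 179 (1.39, 1.12 to 1.73). The fullest CTCF window, 45 to 50 Mb of chromosome 17, went from 253 to 197. The calls depended on the setting. At a minimum count of 3, 4 of 21 windows were higher (6.54% on the other chromosomes) and 3 lower (19.6%). With equal total counts 3 of 30 were higher (3.05% on the other chromosomes) and 2 lower (13.2%).

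All 49 wild-type CTCF hubs still had CTCF loops in deleted cells, as did all 219 elsewhere, and 38 of the 49 had fewer, with 667 loops before and 523 after deletion, and 21 (42.9%) were hubs again. Hubs were picked for high numbers in the wild-type list, a choice that can by itself go with lower numbers in a second list. How far it did so here was not tested. On the other chromosomes 72 of 219 (32.9%) were hubs again and 192 had fewer loops.

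For RAD21 the same comparison gave 1821 loops in wild-type and 1337 in ZNF143-deleted cells on these chromosomes, a ratio of 0.734 (0.684 to 0.788), against 0.632 (0.616 to 0.649) elsewhere, and 1.16 (1.08 to 1.25) relative to the others. Chromosome 16 had the highest ratio of 23 chromosomes, 504 and 407 loops (0.808), followed among the 3 by chromosome 17 with 1042 and 763 (0.732) and chromosome 22 with 275 and 167 (0.607). With the wild-type list thinned to an equal total count the ratio on the 3 chromosomes was 1.40, and 1.16 relative to the others. Among loops with a count of at least 10 the ratio was 0.293, and 1.60 relative to the others.

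Of the wild-type RAD21 loops, 704 of 1821 were found again (38.7%, 36.5 to 40.9), with 34.1% over the whole list and a difference from the other chromosomes of 5.08 points (2.74 to 7.46). At a minimum count of 10 that difference was 0.110 points. Chromosomes 16 and 17 had 40.3% and 40.4%. Chromosome 22 had 29.1% (24.0 to 34.7), below both. There, only 25.1% of the lost loops had both anchors in the list of deleted cells, against 41.5% and 48.0% on chromosomes 16 and 17 and 32.2% on the other chromosomes. The lost RAD21 loop with the highest count, chr17:74518684-74520248 to chr17:74542005-74544718, had 22 with RAD21 and 18 with CTCF in wild-type cells and 0 and 5 in deleted cells, and was in none of the 3 ZNF143 lists. On chromosome 16 the lost loop chr16:30855465-30856933 to chr16:30932089-30933682 had 13 with RAD21, 9 with CTCF and 11 with ZNF143 in wild-type cells, and 0 with RAD21 and 2 with CTCF in deleted cells. Its ZNF143 count was 57 in 0 h CTCF-AID cells and 0 at 24 h. The gained RAD21 loop with the highest count was chr16:69429418-69433038 to chr16:69457921-69459734. It had 12 with RAD21 in deleted cells and 5 with CTCF in wild-type cells. Those of chromosomes 17 and 22 had 9 and 6 with RAD21 in deleted cells.

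RAD21 loops had a median span of 120 kb before and 113 kb after deletion (ratio 0.941, 0.874 to 1.02), an interval that includes 1. On the other chromosomes it was 167 and 147 kb (0.880, 0.851 to 0.907). Loops of 1000 to 2000 kb numbered 17 in both lists of these chromosomes and 348 and 128 elsewhere, a relative ratio of 2.72 (1.35 to 5.49).

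For RAD21, 3 of 31 windows were higher (5.36% over the genome) and 1 was lower (15.1% over the genome). The higher windows were 55 to 60 Mb of chromosome 16, with 47 and 48 loops (1.59, 1.06 to 2.37), 15 to 20 Mb of chromosome 17, with 49 and 48 (1.52, 1.02 to 2.27), and 85 to 90 Mb of chromosome 16, with 32 and 31 (1.51, 0.918 to 2.47). The lower was 80 to 85 Mb of chromosome 16, next to the last of these, with 28 and 9 (0.50, 0.236 to 1.06). With equal total counts none of 17 windows passed in either direction, against 2.88% higher and 15.1% lower on the other chromosomes. Across the 30 windows tested for both antibodies, the log2 relative ratios of CTCF and RAD21 had Pearson's r of 0.098 (rho 0.26), a description over windows of the same chromosomes. Of 20 RAD21 hubs, 4 were hubs again, 19 had fewer loops, and the loops there numbered 256 and 170. Elsewhere 24 of 132 were hubs again and 125 had fewer loops. The hub at chr17:7814907-7817185 had 15 RAD21 loops and then 9, and its neighbour chr17:7960229-7964346 had 14 and then 11.

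The CTCF-AID lists ask how ZNF143 loops change when CTCF is degraded. On these chromosomes 5920 ZNF143 loops were listed at 0 h and 3236 after 24 h of auxin, a ratio of 0.547 (0.524 to 0.571), against 0.503 (0.494 to 0.512) on the other chromosomes and 1.09 (1.04 to 1.14) relative to them. Without chromosome 19, where loops went from 7951 to 5876, the relative ratio was 1.26 (1.20 to 1.33). The 3 chromosomes differed: 1843 and 1174 loops on chromosome 16 (0.637, 0.592 to 0.686), 3243 and 1693 on chromosome 17 (0.522, 0.492 to 0.554) and 834 and 369 on chromosome 22 (0.442, 0.390 to 0.501), with intervals that do not overlap between chromosomes 16 and 17. Total counts fell less than loop numbers throughout. Their ratios were 0.925 on chromosome 16 (7535 and 6973), 0.703 on chromosome 17, 0.601 on chromosome 22 and 0.710 on the other chromosomes. Loops with a count of at least 10 did not share the lower number: their ratio on the 3 chromosomes was 1.10, with 1.01 relative to the others, and the relative ratio of chromosome 22 turned from 0.879 to 1.52.

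Of the 0 h loops, 1551 of 5920 were found again (26.2%, 25.1 to 27.3), with 24.7% over the whole list. Elsewhere the share was 24.4%, or 19.03% (18.6 to 19.5) without chromosome 19, and at a minimum count of 10 the difference from the others turned to -3.75 points. Chromosome 16 had 31.9% (29.8 to 34.0), chromosome 17 26.2% (24.7 to 27.7) and chromosome 22 13.8% (11.6 to 16.3). Of the 4369 lost loops, 1186 (27.1%) had both anchors in the 24 h list and 2513 (57.5%) had only 1, against 24.1% and 53.5% elsewhere, and 20.5% with both without chromosome 19. Kept loops with a count of at least 10 at 0 h numbered 217. The highest count among fitting loops at 24 h was above the 0 h count for 124 of them (median ratio 1.19), against 643 of 1188 elsewhere (1.10). The median was 1.32 on chromosome 16 and 0.968 on chromosome 17. The lost loops with the highest counts were chr16:2204742-2206799 to chr16:2254283-2256418, with 33 in wild-type cells, 64 at 0 h and 0 at 24 h, and chr17:7590167-7592450 to chr17:7620019-7621516, with 32, 35 and 0 and CTCF and RAD21 counts of 3 in wild-type cells. On chromosome 22, chr22:19956106-19959552 to chr22:20103944-20106141 had 9, 19 and 0, and its CTCF count was 5 before and 4 after ZNF143 deletion. Gained loops reached 28 at chr17:26987745-26989862 to chr17:27044254-27047815, which was in none of the other 6 lists, and 16 at chr16:30620536-30621779 to chr16:30708681-30711063, where a loop with a count of 8 was found at 0 h within a 10 kb extension.

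ZNF143 loops were longer after auxin on these chromosomes. The median went from 205 kb (197 to 215) to 269 kb (259 to 285), a ratio of 1.32 (1.24 to 1.41), and from 241 to 305 kb elsewhere (1.27, 1.23 to 1.30). Every span class had fewer loops, with ratios that went up with span: 0.433 at 20 to 50 kb (811 and 351 loops), 0.544 at 200 to 500 kb (1610 and 876) and 0.801 at 1000 to 2000 kb (502 and 402). Lost loops had a median of 232 kb, kept loops 153 kb and gained loops 422 kb, against 271, 174 and 471 kb elsewhere. The other chromosomes had ratios of 0.417, 0.487 and 0.712 in the same 3 span classes.

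All 37 windows tested had fewer loops at 24 h, as did all 332 on the other chromosomes. Relative to the genome, 1 was higher (2.17% over the genome) and 4, or 10.8%, were lower (39.8% over the genome). The higher window was 30 to 35 Mb of chromosome 16, with 303 and 265 loops (1.72, 1.45 to 2.03), the window that was rich in ZNF143 and poor in CTCF loops in wild-type cells. Its neighbour at 25 to 30 Mb had 110 and 84 (1.50, 1.13 to 1.99) and lay just under the limit. The lowest 3 were all on chromosome 17: 65 to 70 Mb with 55 and 12 loops (0.428, 0.229 to 0.80), 55 to 60 Mb with 107 and 27 (0.495, 0.325 to 0.756) and 30 to 35 Mb with 72 and 20 (0.545, 0.332 to 0.895). The fourth was 35 to 40 Mb of chromosome 22, with 216 and 61 (0.554, 0.417 to 0.737). In wild-type cells the 4 held 42, 67, 54 and 50 CTCF loops against 12, 26, 16 and 28 ZNF143 loops. At 0 h the same 4 held 55, 107, 72 and 216 ZNF143 loops, more than their wild-type CTCF loops. In wild-type cells CTCF loops outnumbered ZNF143 loops in 29 of the 37 windows tested. The relative ratios of these 29 ran from 0.428 to 1.50 (median 0.939), and the other 8 ran from 0.864 to 1.72 (median 1.25). The wild-type CTCF list was the longer over the genome, with 19312 loops against 11981. A link between this balance and the ratios was not tested. At a minimum count of 3 the higher windows numbered 2 of 24 (4.46% on the other chromosomes). With windows shifted by 2.5 Mb the lower windows numbered 7 of 39 (44.1% on the other chromosomes). Without chromosome 19 in the genome ratio 4 windows were higher (4.05% on the other chromosomes) and 4 lower (37.1%).

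**Figure D5:**
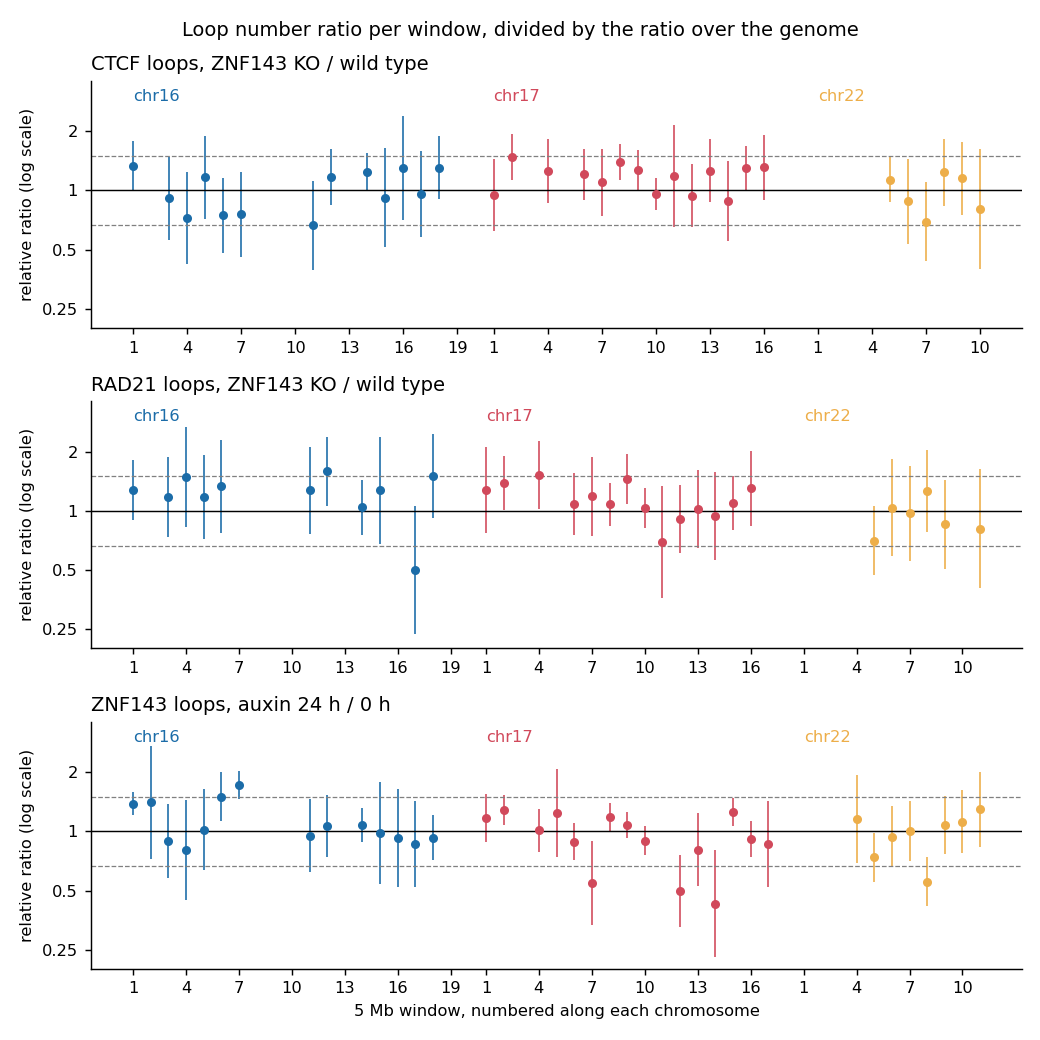
Loop number ratio of each 5 Mb window with at least 20 loops in the first list, divided by the ratio over the genome (vertical axis, log scale), against window number along chromosomes 16, 17 and 22 (horizontal axis), for CTCF and RAD21 after ZNF143 deletion and ZNF143 after auxin; bars are 95% counting intervals and dashed lines mark 1.5-fold. Window 7 of chromosome 16 is highest after auxin (1.72) and window 14 of chromosome 17 lowest (0.428).

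Of the 242 hubs of the 0 h list, 134 (55.4%) were hubs again at 24 h and 29 had no loop left within 5 kb. Elsewhere 696 of 1186 (58.7%) were hubs again and 115 had none. Leaving out chromosome 19, 308 of 670 (45.97%) elsewhere were hubs again. Of 80 hubs on chromosome 16, 57 (71.3%) were hubs at 24 h and 4 had no loop left, whereas on chromosome 17, 68 of 143 (47.6%) were hubs again and 21 had none. Chromosome 22 had 9 of 19 and 4. The median number of loops at 24 h over 0 h was 0.777 on chromosome 16 and 0.688 on chromosome 17, and 0.70 elsewhere.

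The ZNF143 lists of CTCF-AID cells at 0 h and wild-type cells, a pair with no auxin and no deletion, were compared to see how far lists of the same antibody differed. The cells differ in line, and CTCF levels were not measured here. There were 5920 loops against 2005, a ratio of 2.95 (2.81 to 3.11), and 3.46 on the other chromosomes, or 3.78 without chromosome 19. The ratio was 1.89 at a minimum count of 3, 1.66 at 10 and 1.07 with equal total counts, so the size of the gap depended on the totals. Of the wild-type loops, 1236 of 2005 (61.6%) were found at 0 h, with 59.6% over the whole list, and the share was 40.5% with equal total counts. The difference from the other chromosomes was 2.46 points (0.110 to 4.78), and 8.04 points without chromosome 19, but it turned to -1.04 at a minimum count of 3, -3.22 at 10 and -0.268 without extension. The median span was 205 kb at 0 h and 130 kb in wild-type cells, a ratio of 1.57 that came to 1.08 at a minimum count of 3. Of 23 windows, 3 were higher (9.85% over the genome) and 3 lower (12.9% over the genome), among them the ZNF143-rich window at 30 to 35 Mb of chromosome 16, with 174 and 303 loops (0.516 relative, 0.428 to 0.623), and at the other end 85 to 90 Mb of that chromosome, with 21 and 174 (2.46, 1.56 to 3.87). All 53 wild-type ZNF143 hubs were hubs again, as were 294 of 306 elsewhere. At a minimum count of 3, 0 of 11 windows were higher and 3 lower, against 0 and 7 of 43 (16.3%) on the other chromosomes. This pair and the auxin pair share the 0 h list, in which the window at 30 to 35 Mb of chromosome 16 was low relative to wild-type cells and the window at 35 to 40 Mb of chromosome 22, with 28 and 216 loops, was high.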

How the data were processed

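For each HiChIP library (MboI digestion, per the labels' protocols) the authors deposited a list of anchor pairs with a count. The submitters' processing notes name HiC-Pro and hg19 without a role. The loop caller, filters and any pooling are not given in the sources used here. The deposited counts were used as they stand, and whether they were scaled is not given there either. Loops were assigned to 5 Mb windows by the midpoint between their anchors, and 4 loops on chromosome Y were left out. Overlapping anchors were merged for hubs. Shares carry Wilson intervals, loop number ratios exact binomial ones, relative ratios log-scale intervals from 4 counts, differences Newcombe intervals and medians order-statistic intervals, all at 95%. Matching and window calls were run on simulated lists as a check of the code only. Kept loops were moved by less than the extension there, so their recovery was fixed in advance. Calculations used Python 3.11.15 with numpy 2.4.6, pandas 2.3.3 and scipy 1.17.1, and figures matplotlib 3.10.9. Alternatives were minimum counts of 3 and 10, extensions of 0 and 10 kb, windows shifted by 2.5 Mb, anchors merged within 5 kb, windows with loops only, and thinning to equal total counts. Leaving out chromosome 19 was added after seeing the data.

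Chromosomes, tests and rules were chosen with earlier results of these data known. Named windows are the 3 fullest per list and the 3 highest and lowest ratios per pair. Named loops are, per chromosome, the highest count per list and among lost and gained loops, and named hubs are the 3 with most loops per list and the first per chromosome in wild-type lists. Examples outside this rule were picked after their values were seen. Genes and sequences at the anchors, and a planned list of landmark genes, were not analysed here.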

Additional observations from a re-analysis of the deposited data

How the results depend on the processing

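Of 266 recomputed values, 150 stayed within their main interval (counts of windows, hubs or a named loop within 1.5 times, that limit included). A further 106 moved beyond it and 10 reversed. The causes were not tested. Density over the other chromosomes was 2.67 for ZNF143 at a minimum count of 3. At a minimum of 10 it was 3.61 for ZNF143 and 2.02 for CTCF. Over windows with loops it was 2.81 for ZNF143, 1.94 for CTCF and 1.70 for RAD21, and without chromosome 19 it was 3.52 for ZNF143 and 1.83 for CTCF.

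The CTCF loop number ratio was 0.775 at a minimum of 3, 0.302 at 10 and reversed to 1.47 with equal total counts. For RAD21 these were 0.571, 0.293 and a reversal to 1.40. After auxin they were 0.689, a reversal to 1.10 at 10, and 0.741. The ratio relative to the other chromosomes was 1.33 and 1.60 for CTCF at 3 and 10, 1.60 for RAD21 at 10, and 1.02 and 1.01 after auxin, or 1.26 without chromosome 19. At 10 it reversed to 0.839 for CTCF on chromosome 16, to 1.52 after auxin on chromosome 22 and to 0.609 for the 0 h and wild-type pair on chromosome 22. Span ratios were 0.763 for CTCF and 0.806 for RAD21 at 10, and 1.45 after auxin with equal totals.

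Loops found again came to 60.8% and 91.1% for CTCF at 3 and 10, 38.9% without extension, 51.89% at 10 kb and 51.9% with equal totals. For RAD21 they came to 53.7%, 86.4%, 32.95%, 44.5% and 48.8%, and after auxin to 45.7%, 70.45%, 21.5%, 31.7% and 29.3%. The difference from the other chromosomes reversed to -3.75 points after auxin at 10, and for the 0 h and wild-type pair to -1.04 at 3, -3.22 at 10 and -0.268 without extension.

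Shares in brackets are those of the other chromosomes at the same setting. Higher CTCF windows, 0 of 33 in the report, numbered 4 of 21 at a minimum of 3 (6.54%). They numbered 2 of 36 when shifted (3.20%) and 3 of 30 with equal totals (3.05%). Lower ones, 1 in the report, numbered 3 at a minimum of 3 (19.6%) and 2 with equal totals (13.2%). Higher RAD21 windows, 3 of 31 in the report, numbered 1 of 21 at a minimum of 3 (7.52%) and 0 of 17 with equal totals (2.88%). Lower ones, 1 in the report, numbered 0 of 34 when shifted (14.4%) and 0 with equal totals (15.1%). After auxin 2 of 24 were higher at a minimum of 3 (4.46%) and 4 of 37 without chromosome 19 (4.05%), against 1 of 37 in the report. When shifted, 7 of 39 were lower (44.1%), against 4 in the report. Hubs at a minimum of 3 numbered 29 for ZNF143, 11 for CTCF and 4 for RAD21, against 53, 49 and 20, and their shares of anchors were not computed. Named lost and gained loops were not searched for without extension, since that cannot find more. No paired analysis was possible because each group held 1 library. Low counts limit most comparisons, since the median count on these chromosomes was 2 or 3 in each list.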
